A study of Mus musculus with 2 samples.

Results

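The genes of the integrated stress response followed here number 10 and were measured in RNA from whole mouse kidneys. They are Atf4, Atf5, Ddit3, Ddit4, Trib3, Asns, Sesn2, Ppp1r15a, Eif4ebp1 and Vldlr. The members were taken by gene symbol from the deposited read count table, which lists 45777 genes, and all 10 were found. The data comprised 2 libraries. The Control library came from kidneys of control mice, and the CKO library from mice with a conditional knockout of Inmt, an amine methyltransferase gene, directed at the proximal tubule. Mice of both groups ate standard chow and were untreated. Strain, sex, age, the driver of the deletion, the control genotype and the number of animals behind each library are not given in the sources used here.

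The integrated stress response is a shared reply of cells to unfolded protein, amino acid shortage, double-stranded RNA, heme shortage and mitochondrial damage. Each signal activates a kinase that phosphorylates the translation factor eIF2, which lowers protein synthesis in general while the Atf4 transcript is translated better, so that ATF4 protein is set largely at the level of translation and its mRNA is an incomplete measure of it. ATF4 then pairs with C/EBP proteins at composite response elements and activates genes of amino acid supply, of feedback and of cell death. The proximal tubule, the segment that takes back most of the filtered solutes, is rich in mitochondria and known for this response in kidney injury.

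Counted reads came to 33618076 (Control) and 38136616 (CKO). Levels are CPM, read counts put on a common library size after scaling by TMM, a trimmed mean of gene ratios. Each log2 ratio sets the CKO against the Control level after 0.5 CPM is added to both, so that ratios of genes with few reads come out too small. The 15129 genes with at least 1 CPM in either library were called expressed, and their median log2 ratio was 0.01. Inmt, the targeted gene, stood 4.73-fold lower with CKO (95% counting interval 4.59 to 4.88). With 1 library per group no test across animals was possible, and all intervals are 95% intervals for counting error only. Reads are not independent molecules here, and the variation between animals is outside these intervals.

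The promoter sequences of Asns and Ppp1r15a are shown because each holds a full letter match to an element that bZIP factors of this response are known to bind, and the shorter windows of Trib3 and Vldlr because they match the same C/EBP-ATF motif as Asns, read on the other strand and with another base at its free position. Sequences are from RefSeq on GRCm38.p6, the assembly of the mm10 build, where 9 of the 10 members matched an entry. Eif4ebp1 did not, so its promoter was not searched. Each is printed 5′ to 3′ on the strand of the gene, with the matched element in capitals.
Asns, chr6:7693210-7693459, minus strand, the 250 bases before the start: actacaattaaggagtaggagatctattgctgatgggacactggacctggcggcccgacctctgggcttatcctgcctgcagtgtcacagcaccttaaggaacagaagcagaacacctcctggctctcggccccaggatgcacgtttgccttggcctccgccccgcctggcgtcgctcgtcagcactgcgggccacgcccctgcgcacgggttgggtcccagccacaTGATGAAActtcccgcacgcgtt
Ppp1r15a, chr7:45526269-45526518, minus strand, the 250 bases before the start: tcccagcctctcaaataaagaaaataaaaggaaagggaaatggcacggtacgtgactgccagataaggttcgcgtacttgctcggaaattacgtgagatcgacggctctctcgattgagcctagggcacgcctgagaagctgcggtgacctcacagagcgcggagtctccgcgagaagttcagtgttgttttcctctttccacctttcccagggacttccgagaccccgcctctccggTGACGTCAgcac
Trib3, chr2:152344028-152344057, minus strand, 30 bases: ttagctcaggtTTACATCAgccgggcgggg
Vldlr, chr19:27216809-27216838, plus strand, 30 bases: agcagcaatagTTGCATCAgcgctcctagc

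Windows of 250 bases before to 50 bases after each annotated start were searched on both strands for 4 motifs in 11 entries for the 9 members. The C/EBP-ATF response element, TGATGNAA, was found in Asns, Trib3 and Vldlr, and in 3.97% of 32851 promoter entries of all genes. In Asns it begins 23 bases before the start, and in Trib3 at base 15 of the transcript. In Vldlr it lies 200 bases before the second of the annotated starts. The cAMP response element, TGACGTCA, was found in Ppp1r15a, where it begins 12 bases before the start, and in 1.79% of all entries. The AP-1 site, TGANTCA, matched in Ddit3 and in 7.81% of all entries. The hypoxia element core, ACGTG, matched in Asns, Ddit3, Ddit4 and Ppp1r15a and in 19.6% of all entries. None (0) of these matches overlapped another motif, and a match only describes the letters.

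The members did not move as 1 block between the libraries. Asns and Eif4ebp1 were at least 2-fold higher in the CKO library on the log2 scale, and Trib3 lay just under that limit. Atf5, Ppp1r15a, Sesn2 and Ddit4 were higher by smaller ratios, Ddit3 was nearly equal, and Atf4 and Vldlr were lower when scaled by TMM. Thus 2 of 10 members were at least 2-fold higher, where 10.3% of all expressed genes were, and 0 of 10 were at least 2-fold lower, where 1.66% were. The counting interval of the ratio lay above 1 for 7 members, Trib3 among them, against 36.8% of expressed genes, and below 1 for 2 members, against 34.7%. The median log2 ratio of the 10 members was 0.44, beside 0.01 for all expressed genes.

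Level bears on these shares. Among expressed genes with a Control level of 1 to 5 CPM, where Asns and Eif4ebp1 lie, 18.1% were at least 2-fold higher, and among those with 5 to 30 CPM, where Atf5, Ddit3, Ddit4, Sesn2 and Ppp1r15a lie, 6.69% were. With 30 to 150 CPM, where Atf4 and Vldlr lie, the share was 1.1%, and above that it was 0.564%. Under 1 CPM in the Control, where genes could be called expressed only through the CKO library, it was 57.3%. Trib3 is one of these and reached 1 CPM in the CKO library only. It had to be higher there to pass the minimum, and neither its count, its place among the 7 members, nor the median over all members supports a difference.

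**Figure D1:**
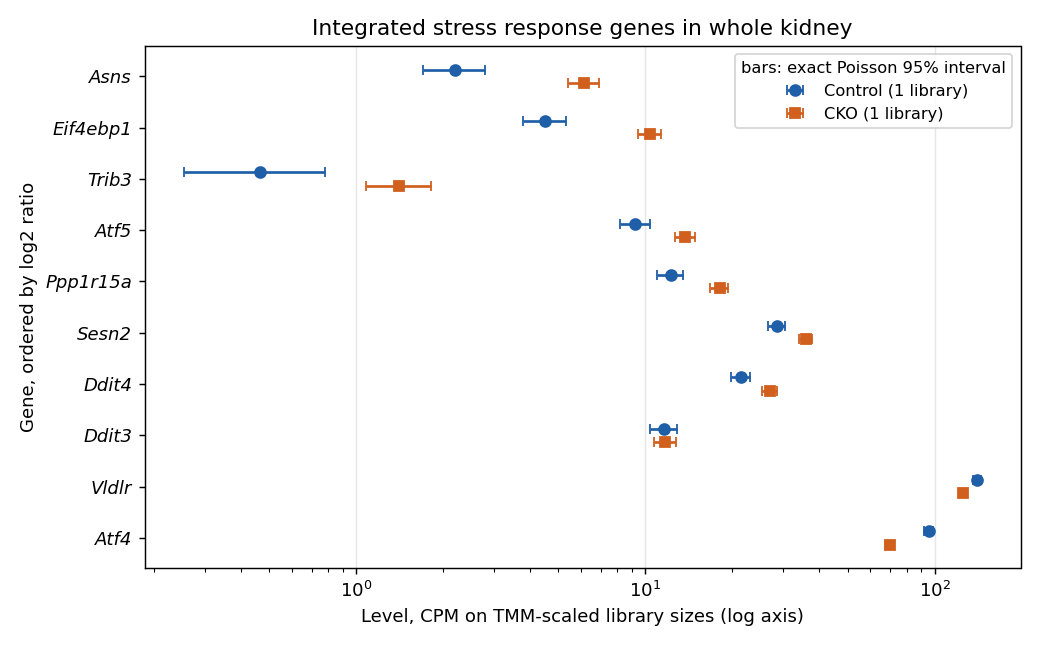
Levels of the 10 genes in the Control library (circles) and the CKO library (squares), in CPM on a log axis, with exact Poisson 95% intervals for counting error. The intervals of Ddit3 overlap almost fully, those of Asns, Eif4ebp1 and Trib3 are farthest apart, and Atf4 and Vldlr are the 2 genes with the CKO level on the lower side, which for Vldlr turns with total counts.

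Atf4 (NCBI gene 11911, chromosome 15, 80255184 to 80257545) encodes the transcription factor at the centre of the response. Its reads numbered 2871 (Control) and 2985 (CKO), or 95.4 CPM (exact Poisson interval 91.9 to 98.9) and 70.1 CPM (67.6 to 72.7). The CKO level was the lower, by 1.36-fold (1.29 to 1.43), and 87.6% of expressed genes had a higher log2 ratio than its -0.44. With total counts the log2 ratio of Atf4 was -0.12 and with the authors' TPM values -0.02, with medians over all expressed genes of 0.32 and 0.40.

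Atf5 (NCBI gene 107503, chromosome 7, 44812256 to 44816658) encodes a related bZIP factor that is also controlled by translation and acts in the mitochondrial branch of the response. It had 277 and 583 reads, or 9.20 CPM (8.15 to 10.3) for Control and 13.7 CPM (12.6 to 14.9) for CKO. The ratio was 1.49 (1.29 to 1.72), and the 2 intervals do not overlap. Ddit3 (NCBI gene 13198, chromosome 10, 127290793 to 127296291) encodes CHOP, the factor tied to cell death under prolonged stress. Its 348 and 498 reads gave 11.6 CPM (10.4 to 12.8) and 11.7 CPM (10.7 to 12.8), a ratio of 1.01 (0.881 to 1.16). No difference in Ddit3 was detectable at this depth with TMM, and its log2 ratio of 0.02 was -0.0010 with DESeq2 size factors and 0.32 with total counts.

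Asns (NCBI gene 27053, chromosome 6, 7675165 to 7693209) encodes asparagine synthetase, a classic ATF4 target of amino acid shortage. Its reads numbered 66 (Control) and 261 (CKO), or 2.19 CPM (1.69 to 2.79) and 6.13 CPM (5.41 to 6.92). The ratio was 2.80 (2.13 to 3.72), and its log2 ratio of 1.30 was the highest among the 10 members, exceeded by 6.52% of expressed genes. The interval stays above 2, which held for no other member.

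Trib3 and Ppp1r15a are the feedback arm. Trib3 (NCBI gene 228775, chromosome 2, 152337425 to 152344060) encodes a pseudokinase that binds ATF4 and CHOP and dampens their activity. It had the fewest reads of the members, 14 (Control) and 60 (CKO), or 0.465 CPM (0.254 to 0.780) and 1.41 CPM (1.08 to 1.81). The plain ratio of 3.03 (1.67 to 5.87) is the highest of the members and also the least precise, and with the added 0.5 CPM its log2 ratio was 0.98. Ppp1r15a (NCBI gene 17872, chromosome 7, 45522917 to 45526268) encodes GADD34, which brings phosphatase 1 to eIF2 and ends the block of translation. Its 368 and 768 reads gave 12.2 CPM (11.0 to 13.5) and 18.0 CPM (16.8 to 19.4), a ratio of 1.48 (1.30 to 1.68). The intervals of the 2 Ppp1r15a levels do not overlap, and Trib3 is held to the limit given above.

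Ddit4, Sesn2 and Eif4ebp1 act on mTORC1, the kinase complex of growth, or on the translation it controls. Ddit4 (NCBI gene 74747, chromosome 10, 59949675 to 59951770) encodes REDD1, an mTORC1 inhibitor that also answers to hypoxia and glucocorticoids. It had 642 and 1144 reads, or 21.3 CPM (19.7 to 23.0) for Control and 26.9 CPM (25.3 to 28.5) for CKO, a ratio of 1.26 (1.14 to 1.39). Sesn2 (NCBI gene 230784, chromosome 4, 132492804 to 132510456) encodes a leucine-binding inhibitor of mTORC1 signalling and is also a p53 target. Its 858 and 1528 reads gave 28.5 CPM (26.6 to 30.5) and 35.9 CPM (34.1 to 37.7), with nearly the ratio of Ddit4, at 1.26 (1.16 to 1.37). Both are modest differences, and 28.9% and 28.8% of expressed genes had a higher log2 ratio than Ddit4 and Sesn2.

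Eif4ebp1 (NCBI gene 13685, chromosome 8, 27260327 to 27275656) encodes 4E-BP1, which binds the cap-binding factor eIF4E and holds back translation until mTORC1 phosphorylates it. Its reads numbered 135 (Control) and 440 (CKO), or 4.48 CPM (3.76 to 5.31) and 10.3 CPM (9.39 to 11.3). The ratio was 2.30 (1.90 to 2.82) and the log2 ratio 1.12, exceeded by 8.46% of expressed genes. Its paralogues, which also bind eIF4E, were not on that side with TMM. Eif4ebp2 had a log2 ratio of -0.40 and Eif4ebp3 of -0.20, which with total counts became -0.080 and 0.099.

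Vldlr (NCBI gene 22359, chromosome 19, 27216480 to 27254231) encodes the very low density lipoprotein receptor, an ATF4 and hypoxia target that takes up triglyceride-rich lipoprotein. It had the most reads of the members, 4220 and 5355, or 140 CPM (136 to 144) for Control and 126 CPM (122 to 129) for CKO. The level was 1.11-fold lower (1.07 to 1.16) with TMM, but the log2 ratio of -0.16 became 0.16 with total counts, 0.16 with the authors' FPKM values and 0.27 with TPM. Its sign therefore rests on the scaling. The medians of all expressed genes were 0.01 with TMM, 0.32 with total counts, 0.26 with FPKM and 0.40 with TPM. Vldlr lay below the median in each case.

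**Figure D2:**
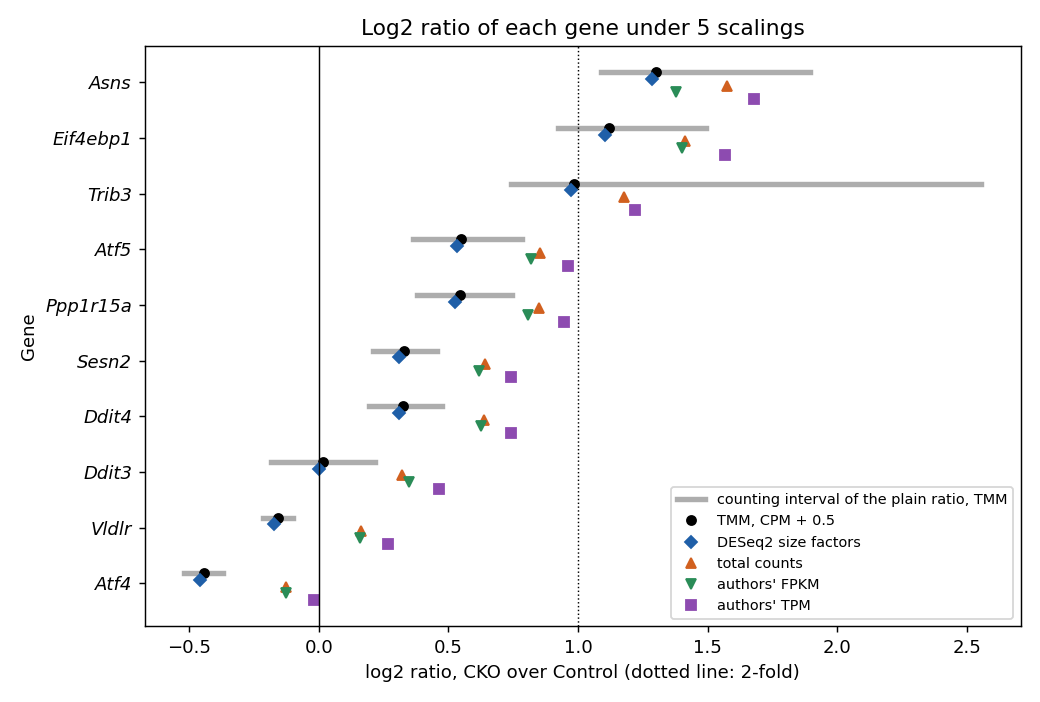
Log2 ratio of each gene, CKO over Control, with TMM (black circles), DESeq2 size factors, total counts, the authors' FPKM and the authors' TPM values, with the counting interval of the plain ratio as a grey bar. Asns and Eif4ebp1 stay right of the dotted 2-fold line in all 5, Vldlr crosses 0, and Trib3 has no FPKM point because it stayed under the minimum there.

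Levels were compared between genes only on the authors' FPKM scale, which accounts for gene length. Atf4 was the most abundant member in both libraries, at 43.6 FPKM (Control) and 39.9 FPKM (CKO). In the Control, Vldlr (13.4 FPKM), Ddit4 (9.98), Sesn2 (8.46) and Ddit3 (6.94) followed. Ppp1r15a (4.13), Atf5 (3.99) and Eif4ebp1 (3.60) were next, and each of the 3 had a counting interval that overlapped that of its neighbour in this order. Asns (0.870) and Trib3 (0.175) were the lowest.

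In the CKO library the FPKM order differed in a few places. Eif4ebp1 stood at place 5 with 10.3 FPKM, against place 8 in the Control, and its interval overlapped that of Ddit3 (8.97). Ddit4 (15.7) and Vldlr (15.0) overlapped, as did Ppp1r15a (7.59) and Atf5 (7.42). Sesn2 had 13.3 FPKM. Asns (3.07) and Trib3 (0.669) remained the lowest in level, although their ratios were the highest.

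A ratio between members of the same library does not depend on how the libraries are scaled. Per 1000 Atf4 reads, the Control library held 23.0 reads of Asns and the CKO library 87.4, a ratio of 3.80 (exact conditional interval 2.88 to 5.09). For Trib3 the numbers were 4.88 and 20.1, a ratio of 4.12 (2.27 to 8.004), and for Eif4ebp1 47.0 and 147, a ratio of 3.13 (2.56 to 3.86). For Atf5 and Ppp1r15a the ratios were 2.02 (1.74 to 2.37) and 2.01 (1.75 to 2.30). Ddit4 and Sesn2 stood at 1.71 (1.53 to 1.92) and 1.71 (1.55 to 1.89). Ddit3 at 1.38 (1.19 to 1.60) and Vldlr at 1.22 (1.14 to 1.30) were nearest to 1. All 9 other members took more reads per Atf4 read in the CKO library, by unequal amounts. Atf4 had the lowest ratio of the members, so that direction was fixed by dividing by it. Of all expressed genes, 87.6% had a higher log2 ratio than Atf4, and Trib3 is held to the limit given above. All 9 share the Atf4 counts, so these values are not separate findings.

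Some members share bases with other genes. Atf5 overlaps Nup62 by 571 bases and Il4i1b by 289 bases, both on the other strand. Nup62 had a log2 ratio of -0.01, and Il4i1b had 11 and 3 reads. Ddit3 overlaps Mbd6 by 77 bases at its start and Mars by 71 bases at its end, with log2 ratios of 0.13 and -0.03. Ppp1r15a overlaps Tulp2 by 730 bases, which had 0 reads in both libraries. Vldlr lies within the long noncoding gene Gm35438, which had 2 and 0 reads. The library kit keeps the strand, but whether the counting used it is not given in the sources used here, so values of Atf5 and Ddit3 are uncertain to that extent.

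**Figure D3:**
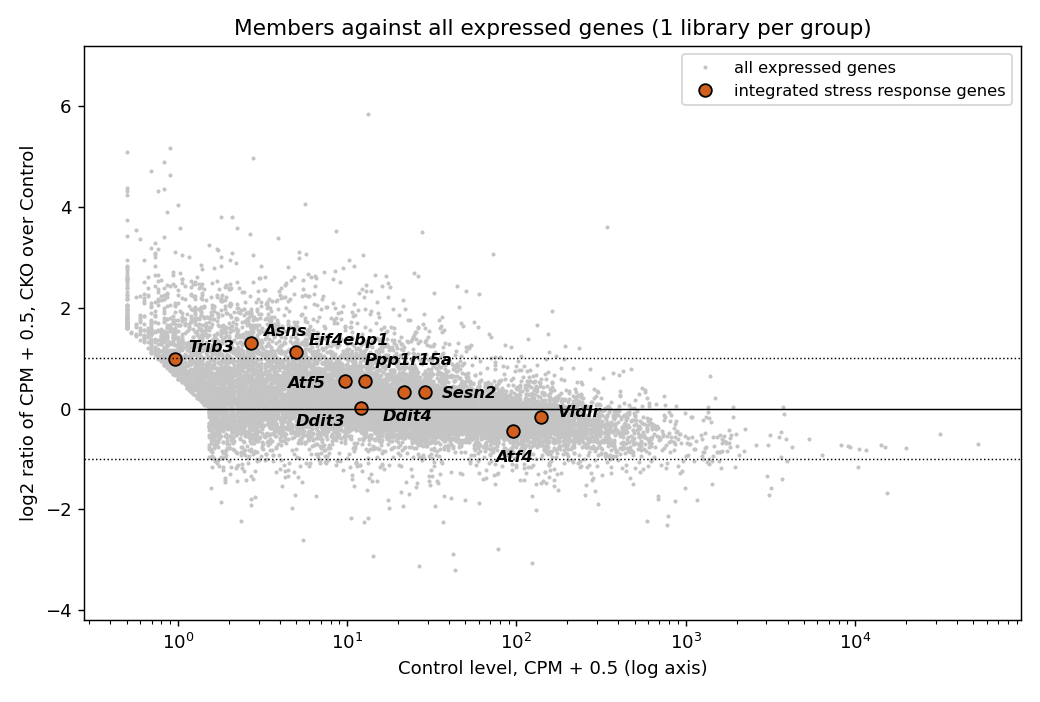
Log2 ratio of CPM + 0.5 against the Control level in CPM + 0.5 (log axis) for all 15129 expressed genes (grey) and the 10 members (orange), with dotted lines at 2-fold. The members lie inside the cloud of all genes, and Trib3 lies at the sloping edge that the 1 CPM minimum draws at low Control levels.

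Upstream of ATF4, the kinases that phosphorylate eIF2 stayed within 2-fold. Of 11 genes of the kinases and the phosphatase, 0 were at least 2-fold higher or lower. Of all expressed genes, 10.3% were higher and 1.66% lower by that limit, so a count of 0 among 11 says little. The median log2 ratio of the 11 was -0.05. With total counts the median was 0.27 and 1 of the 11, Eif2ak2 at 1.005, was at least 2-fold higher, and with TPM 1 was. Eif2ak2, which encodes PKR, the interferon-induced sensor of double-stranded RNA, was 1.63-fold higher (1.49 to 1.78). Eif2ak4, which encodes GCN2, the sensor of uncharged tRNA, was 1.36-fold higher (1.20 to 1.53). Eif2ak3, which encodes PERK in the endoplasmic reticulum, had a log2 ratio of 0.16, and Eif2ak1, which encodes the heme-regulated kinase, -0.34. Dnajc3, an inhibitor of these kinases, was also at -0.34, and Ppp1ca, the most abundant of the list, at -0.14. With total counts Eif2ak1 and Dnajc3 were both at -0.025 and Ppp1ca at 0.18. The 9 subunit genes of eIF2 and eIF2B had a median of -0.26 with TMM and 0.06 with total counts. Their median minus that of all expressed genes was -0.26 with either scaling. Eif2b4 was the lowest at -0.32, followed by Eif2s3x at -0.29 and Eif2b1 at -0.26, which stood at -0.0034, 0.026 and 0.053 with total counts. Eif2s2, the most abundant, was at -0.01 (0.31 with total counts).

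Among the bZIP partners, all 9 genes had log2 ratios above 0, where 50.7% of expressed genes did. Of the 9, 4 were at least 2-fold higher, against 10.3% of all expressed genes. Atf3, a stress-induced repressor, had 24 and 316 reads, a ratio of 9.31 (6.14 to 14.8). At 0.797 CPM in the Control it passed the minimum through the CKO library alone and had to be higher, so it adds nothing to these counts. Cebpd, a C/EBP factor of acute inflammation, was 4.91-fold higher (3.97 to 6.11) and Nupr1, a stress-induced chromatin cofactor, 3.17-fold higher (2.59 to 3.91). The fourth was Jdp2, named here after its value was seen, at 1.07. Nfe2l1, the most abundant, was at 0.21, while Cebpg, a known dimer partner of ATF4, was at 0.18. The median of this list was 0.73.

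Amino acid transporters known as ATF4 targets had 3 of 8 expressed genes at least 2-fold higher, against 10.3% of all expressed genes. At least 2-fold lower were 0, against 1.66%, and the median of the list was 0.86. The shares by Control level given above bear on the counts of this and the other lists as well. With total counts and with TPM 5 of 8 were at least 2-fold higher, and the medians were 1.16 and 1.21. Slc7a1, a carrier of arginine and lysine, was 2.78-fold higher (2.42 to 3.21), with 251 and 987 reads. Slc7a5, the light chain of the leucine exchanger, was 2.40-fold higher (1.75 to 3.35) and Slc38a2, a sodium-coupled carrier of small neutral amino acids, 2.08-fold higher (1.96 to 2.21). Slc3a2, the heavy chain that pairs with Slc7a5 and other light chains, was the most abundant at 58.3 and 71.4 FPKM, with a log2 ratio of -0.02 (0.30 with total counts). Slc7a11 and Slc7a3 stayed under the minimum, on 4 and 32 reads and on 0 and 24 reads.

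Amino acid and one-carbon synthesis genes were spread to both sides, with a median of 0.03. Past 2-fold on the higher side were 2 of 11 expressed genes, against 10.3% of all, and 0 on the lower, against 1.66%. The higher count was 3 with total counts, 4 with TPM and 1 with FPKM. Aldh18a1, which starts proline synthesis from glutamate, was 2.76-fold higher (2.14 to 3.61), and Aldh1l2, a mitochondrial folate enzyme, 2.43-fold higher (1.94 to 3.06). Shmt2, the mitochondrial serine hydroxymethyltransferase and the most abundant of the list, was 1.92-fold lower (1.87 to 1.98). Cbs, of cysteine synthesis, was at -0.93, and with total counts the 2 were at -0.63 (Shmt2) and -0.61 (Cbs). Phgdh, Psat1 and Psph of serine synthesis were at 0.49, 0.03 and -0.22 (0.086 for Psph with total counts).

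The aminoacyl-tRNA synthetase genes, another target group, had 10 of 13 below 0 by TMM, where 50.7% of all expressed genes lay above 0. Of the 13, 0 were at least 2-fold higher, against 10.3% of all expressed genes, and 0 lower, against 1.66%. The median was -0.18 with TMM and 0.14 with total counts. The median of the list minus that of all expressed genes was -0.19 with TMM and -0.18 with total counts. Eprs was 1.35-fold lower (1.29 to 1.41), Xpot, the tRNA exporter, 1.24-fold (1.18 to 1.31) and Aars 1.23-fold (1.18 to 1.28), all by TMM. With total counts their log2 ratios were -0.11, 0.0038 and 0.017. Nars, the most abundant, was at -0.09, or 0.22 with total counts.

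Other targets of ATF4 or CHOP differed in size and side. At least 2-fold higher were 4 of 10 expressed genes, against 10.3% of all, and 1 was at least 2-fold lower, against 1.66%. Gdf15, a stress-induced cytokine that p53 also activates, was 8.34-fold higher (6.63 to 10.6). Bbc3, which encodes the death protein PUMA, was 4.67-fold higher (3.38 to 6.60) on 43 and 284 reads, and Stc2, a secreted glycoprotein, 3.67-fold (2.79 to 4.90). The fourth was Tnfrsf10b, a death receptor gene and CHOP target named here after its value was seen, at 3.25-fold (2.49 to 4.30). Ndrg1, the most abundant at 1018 FPKM in the Control, was 2.63-fold lower (2.60 to 2.65), or at -1.08 with total counts, and with TPM 0 of the list were at least 2-fold lower. Chac1, a gene of glutathione breakdown that is often used as a readout of ATF4, stayed under the minimum with 11 and 27 reads. Fgf21, a secreted hormone of the response, had 0 reads in both libraries.

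The other arms of the unfolded protein response were below the median of all genes. Of 18 XBP1 and ATF6 genes, 0 were at least 2-fold higher, against 10.3% of all expressed genes, and 0 lower, against 1.66%. The median of -0.24 with TMM was 0.08 with total counts, in both cases 0.24 to 0.25 below all expressed genes. Edem1, of protein disposal from the endoplasmic reticulum, was 1.44-fold lower (1.38 to 1.51), Syvn1 1.40-fold (1.32 to 1.49) and Sel1l 1.38-fold (1.33 to 1.43), all by TMM. With total counts these 3 were at -0.21, -0.17 and -0.14. Calr, the most abundant chaperone of the list, was at -0.25, or 0.064 with total counts. The mitochondrial relay and chaperone list had 10 of 10 genes below 0 by TMM, where 50.7% of all expressed genes lay above 0. Of the 10, 0 were past 2-fold, beside the same shares of 10.3% and 1.66%. The median was -0.42, or 0.0016 with the authors' TPM values. The median of the list minus that of all expressed genes was -0.43 with TMM and -0.40 with TPM. Its leading genes were the matrix chaperones Hspd1, at 1.89-fold lower (1.86 to 1.92), and Hspe1, at 1.72-fold lower (1.64 to 1.81), followed by Trap1 at -0.50. With total counts they were at -0.60, -0.46 and -0.19.

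Genes of the mTORC1 pathway, on which Ddit4 and Sesn2 act, stayed within 2-fold in all 16 cases. Of all expressed genes, 10.3% were at least 2-fold higher and 1.66% lower, so most genes stayed within it too. The median of the 16 was -0.06 by TMM and 0.25 by total counts. Mtor itself was at -0.54 and Eif4e, the partner of 4E-BP1, was 1.34-fold lower (1.27 to 1.42) by TMM, and Eif4g1, the most abundant, was at -0.31, or 0.0036 with total counts. With total counts Mtor was at -0.22 and Eif4e at -0.10. Among close paralogues of the members, 1 of 10 was at least 2-fold higher, against 10.3% of all expressed genes, and the median was 0.27. With total counts 3 were, Lrp8, Trib1 and Ddit4l, and the median was 0.58. Lrp8, the receptor nearest to Vldlr, was 2.16-fold higher (1.77 to 2.65), and Trib1, with 367 and 1039 reads, had a log2 ratio of 0.97. Ddit4l was at 0.89, Sesn1 at 0.30 and Sesn3 at 0.41, Trib2 was at -0.76, and Lrp2, the endocytic receptor megalin and the most abundant, was at -0.56. With total counts the last 2 were at -0.44 and -0.24.

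Ddit4, Sesn2 and Vldlr also answer to other regulators, whose targets are given beside them. Of 10 p53 targets, 4 were at least 2-fold higher, against 10.3% of all expressed genes, and the median was 0.77. They were led by Phlda3, Eda2r and Cdkn1a at 9.26-fold, 9.59-fold and 4.06-fold. The same share stands beside the hypoxia and glucocorticoid counts that follow. Ccng1, the most abundant, was at 0.48. Of 11 expressed hypoxia targets, 1 was at least 2-fold higher, and the median was -0.10 by TMM and 0.21 by total counts. Pfkfb3, a glycolysis regulator, was 2.72-fold higher (2.37 to 3.13), Pdk1 was at 0.58 and Car9 at -0.88 (-0.59 with total counts). Ldha, of lactate formation and the most abundant, was at -0.44 (-0.12 with total counts). Of 8 glucocorticoid targets, 2 were at least 2-fold higher, Per1 at 1.35 and Mt2 at 1.24, and Fkbp5 was at -0.99 (-0.68 with total counts, and with DESeq2 size factors 1 gene of the list was at least 2-fold lower), with a median of 0.13. The part of these regulators in the values of Ddit4, Sesn2 and Vldlr was not tested.

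**Figure D4:**
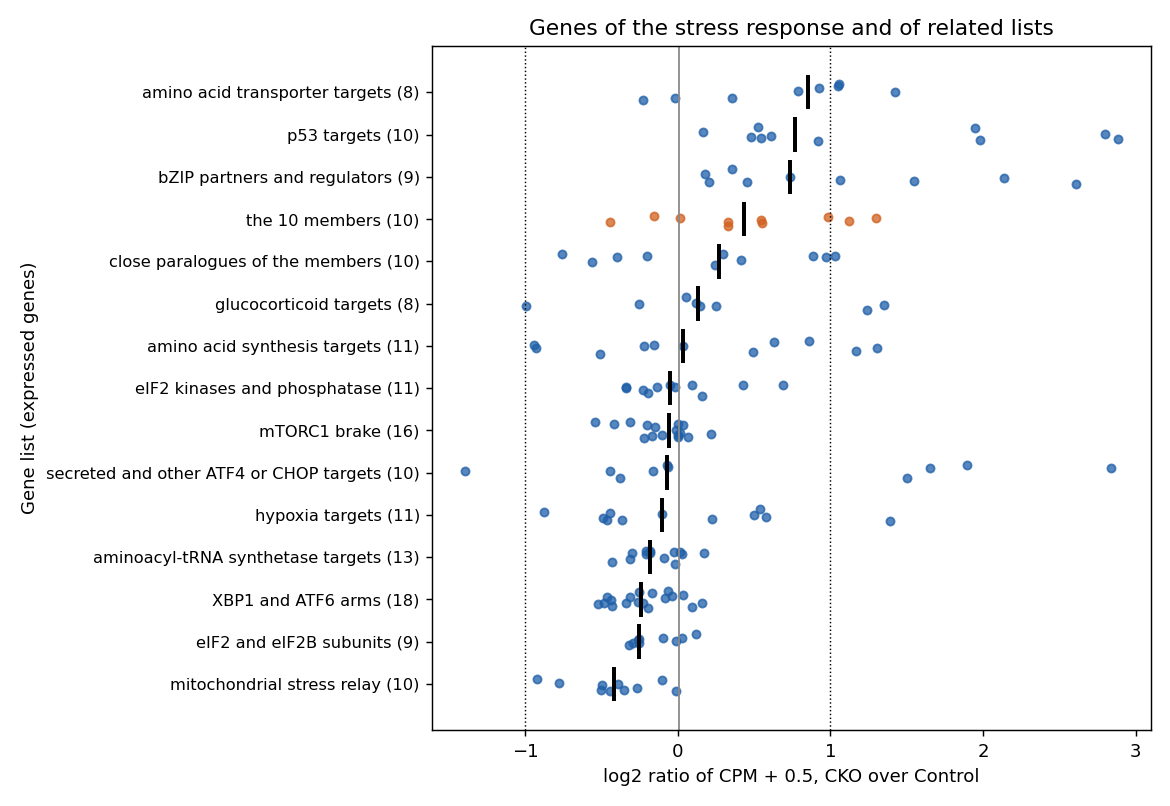
Log2 ratio of CPM + 0.5 for every expressed gene of the members (orange) and of 14 related lists (blue), CKO over Control. Black bars are list medians, the grey line is the median of all expressed genes (0.01) and dotted lines mark 2-fold. The transporter, p53 and bZIP lists have medians above that of the members (0.44), and the mitochondrial list has the lowest at -0.42.

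Summed marker levels of several cell types differed between the libraries, and fewer cells of a type and less RNA per cell cannot be told apart in bulk RNA. The markers of proximal tubule, loop and distal tubule, collecting duct and podocyte were all expressed in this tissue. Beside the counts below, 10.3% of all expressed genes were at least 2-fold higher, 1.66% were at least 2-fold lower and 50.7% lay above 0. The higher share was larger at low Control levels, as given above. Proximal tubule markers had 4 of 10 genes at least 2-fold lower and 9 of 10 below 0 by TMM, with a summed level of 31740 CPM (Control) and 17184 CPM (CKO). Slc34a1, the phosphate carrier, was at -0.93 and Miox at -1.18, both by TMM. Total counts moved the median of all expressed genes from 0.01 to 0.32. The number of these at least 2-fold lower went from 251 to 102. The count of 4 lower proximal tubule markers therefore rests on the scaling. Macrophage and monocyte markers had 9 of 10 at least 2-fold higher, with a summed level of 78.3 and 354 CPM, led by Lyz2 with 156 and 3995 reads, and none (0) was listed at 0. Fibroblast and smooth muscle markers had 6 of 7 at least 2-fold higher, with sums of 257 and 780 CPM, led by the collagen gene Col3a1 with 1506 and 10820 reads. Markers of injured tubule had 8 of 8 at least 2-fold higher, with sums of 380 and 4706 CPM, among them Spp1 at 12.3-fold and Lcn2, on 12 and 1354 reads, at 79.8-fold. Lcn2, Krt19, Krt20 and Sox9 of this list passed the minimum through the CKO library alone and had to be higher. Loop and distal markers summed to 2349 and 3285 CPM, collecting duct markers to 281 and 376 CPM, podocyte markers to 387 and 389 CPM and endothelial markers to 354 and 318 CPM, and of these 4 lists 1 gene was past 2-fold, Aqp2 of the collecting duct at 1.03. Lymphocyte markers were few in reads, and the 3 expressed ones passed the minimum through the CKO library alone. Neutrophil markers summed to 0.897 and 4.70 CPM, and Csf3r, the 1 expressed, passed likewise. The neutrophil markers S100a8, Ly6g and Mpo were at 0 in both libraries. Erythroid markers had 4 of 5 at least 2-fold lower, with sums of 505 and 193 CPM. The part of these shifts in the levels of the 10 members was not tested.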

How the data were processed

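RNA was measured by RNA-seq of a stranded mRNA library, per the labels' protocols. The submitters' processing notes name edgeR, DESeq2, STAR 2.7.3a, Cufflinks 2.2.1, HTSeq and FastQC with the mm10 build, and no role for any. The deposited read counts per gene are whole and not normalized, per the file headers and values. FPKM and TPM values were deposited by the authors in the same table, per the file headers. A second deposited table holds normalized signal values for 19550 genes, each equal to the read count over 1 constant per library.

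In R 4.3.3, TMM factors from edgeR 4.0.16 scaled the counts of genes with a read and gave effective sizes of 30.1 and 42.6 Mreads, so that 1 read is worth 0.0332 and 0.0235 CPM. DESeq2 1.42.0 gave alternative size factors. Levels carry exact Poisson intervals, and ratios carry intervals from the share of CKO reads in both counts (exact Clopper-Pearson), computed in Python 3.11.15 with scipy 1.17.1. The steps were tested on simulated data. The members, 14 related lists and 11 marker lists were chosen with earlier results of these data known. All members were named. In each related list the 3 expressed genes with the largest absolute log2 ratio and the most abundant by FPKM were named, and among markers a few genes. Other genes were named outside this rule, among them Eif2ak1, Eif2ak3, Cebpg and Jdp2. Slc7a11, Slc7a3, Chac1 and Fgf21, which were under the minimum, were also named outside it. Of the list symbols, 1 was matched by NCBI gene ID. Alternatives covered scaling, pseudocount, minimum, fold limit, unit and depth. Every column of per-sample values was used. The result of 1 marker gene is not reported here.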

Additional observations from a re-analysis of the deposited data

How the results depend on the processing

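Of 70 counts and medians recomputed under 14 alternatives, 49 stayed close to the reported value. Some of the 49 could hardly move. The fold limits do not enter the members' median. The authors' normalized signal divides the read counts by 30.1 and 42.6, nearly the TMM effective sizes in Mreads. The 49 is therefore no measure of how stable the results are. The count of 2 members at least 2-fold higher became 0 with a pseudocount of 2 CPM and 0 with a 3-fold limit. It became 1 with a minimum of 10 CPM, which leaves out Asns and Trib3, and 1 where the nearer bound of the interval had to pass 2-fold. It became 3 with total counts, with the totals that leave out mitochondrial and top genes, with a pseudocount of 0.1 CPM and with TPM, through Trib3, and 3 at 1.5-fold. No member (0) was at least 2-fold lower under any of the 14. The median of the members moved from 0.44 to 0.75 with total counts, 0.63 with totals that leave out mitochondrial genes and the top 50, 0.85 with TPM and 0.63 with FPKM. These scalings also moved the median of all expressed genes, from 0.01 to 0.32, 0.21, 0.40 and 0.26. Of the members' log2 ratios, 28 of 107 fell outside the counting interval. The sign changed for Vldlr under 4 alternatives and for Ddit3 under 1.

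Over all expressed genes, the counts of 1552 higher and 251 lower became 2391 and 102 with total counts and 2613 and 139 with TPM. They were 825 and 167 with a pseudocount of 2 CPM, 2920 and 1037 at 1.5-fold and 636 and 45 at 3-fold. The higher count was 573 with a minimum of 10 CPM. The lower count was 158 with the totals that leave out mitochondrial and top genes and 102 with FPKM. No paired analysis was possible because each group has 1 library, and no replicate could be left out. Trib3, on 14 Control reads, is the member that depth limits most.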
